A study of Homo sapiens with 6 samples.

Results

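The 36 genes described here carry out cholesterol and fatty acid synthesis under the sterol regulatory element-binding proteins (SREBPs), and they were compared between RNF6 siRNA and control siRNA libraries. They were taken by symbol from the deposited count tables, which list 56638 symbols. All 36 were found and all 36 had enough reads to be among the 14685 genes tested. The rule that picks them is a list of symbols and uses no measured value, but the list was chosen with earlier results of these data known. They comprise 5 regulators, 7 enzymes of the mevalonate branch, 11 enzymes that turn farnesyl diphosphate into cholesterol by way of squalene, the sterol carrier STARD4, and 12 genes of the fatty acid branch.

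SREBPs are transcription factors made as membrane precursors in the endoplasmic reticulum. The escort protein SCAP carries them to the Golgi, where proteases release the active part, and INSIG proteins hold SCAP back when sterols are abundant. The protein encoded by SREBF2 is known mainly as a regulator of sterol synthesis and the main product of SREBF1 in liver as a regulator of fatty acid synthesis, and proliferating cancer cells need both branches for new membranes.

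The RNF6 siRNA group held 3 libraries from cells given an siRNA against RNF6, a RING-type E3 ubiquitin ligase. The control siRNA group held 3 libraries from cells given a nonspecific siRNA. By genotype the RNF6 siRNA group was labelled a knockdown and the control siRNA group wild type. Both were labelled as HT29, an established human colorectal cancer line, at passage 16-19, and were grown in RPMI-1640 with fetal bovine serum. The sources used here do not give the siRNA sequence, the number of siRNAs or the time to harvest, so loss of RNF6 and an off-target action of the siRNA cannot be told apart. The labels do not tie the 3 replicates to separate cultures, so p-values measure the spread between libraries, which may be technical.

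Promoter windows of 5 members are shown because SREBPs and their partner factors bind there and because these genes carry the main changes or a contrast to them. The sequences are RefSeq's for GRCh38.p14, a later build than that of the counts, and each runs from 250 bases before to 50 bases after the annotated start, 5′ to 3′ on the gene's strand. SREBF2 lies at chr22:41832855-41833154 on the plus strand, NSDHL at chrX:152830813-152831112 on the plus strand, LSS at chr21:46228725-46229024 on the minus strand, ME1 at chr6:83431002-83431301 on the minus strand and INSIG1 at chr7:155297628-155297927 on the plus strand. Capitals mark matches on either strand to a core of the sterol regulatory element (TCACCCCAC), to the E-box CACGTG, to the NF-Y core CCAAT and to the Sp1 core GGGCGG, and neighbouring or overlapping matches run together.
SREBF2: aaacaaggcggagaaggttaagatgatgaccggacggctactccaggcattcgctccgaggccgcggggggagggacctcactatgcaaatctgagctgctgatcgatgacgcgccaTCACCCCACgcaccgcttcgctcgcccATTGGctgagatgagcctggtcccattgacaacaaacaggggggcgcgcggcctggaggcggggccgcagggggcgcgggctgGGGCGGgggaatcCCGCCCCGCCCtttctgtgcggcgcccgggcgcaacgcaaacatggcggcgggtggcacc
NSDHL: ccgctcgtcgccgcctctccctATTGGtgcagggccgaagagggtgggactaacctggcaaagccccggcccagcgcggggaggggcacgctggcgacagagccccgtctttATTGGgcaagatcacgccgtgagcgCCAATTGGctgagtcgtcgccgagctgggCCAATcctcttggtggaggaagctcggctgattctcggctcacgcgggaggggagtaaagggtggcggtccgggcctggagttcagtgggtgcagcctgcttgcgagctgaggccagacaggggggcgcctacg
LSS: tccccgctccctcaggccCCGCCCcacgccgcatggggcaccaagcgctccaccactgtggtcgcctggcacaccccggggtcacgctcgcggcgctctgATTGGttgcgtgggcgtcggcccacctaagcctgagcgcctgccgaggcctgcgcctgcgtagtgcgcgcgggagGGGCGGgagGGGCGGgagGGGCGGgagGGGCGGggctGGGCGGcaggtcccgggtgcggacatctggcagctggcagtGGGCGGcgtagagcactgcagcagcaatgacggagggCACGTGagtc
ME1: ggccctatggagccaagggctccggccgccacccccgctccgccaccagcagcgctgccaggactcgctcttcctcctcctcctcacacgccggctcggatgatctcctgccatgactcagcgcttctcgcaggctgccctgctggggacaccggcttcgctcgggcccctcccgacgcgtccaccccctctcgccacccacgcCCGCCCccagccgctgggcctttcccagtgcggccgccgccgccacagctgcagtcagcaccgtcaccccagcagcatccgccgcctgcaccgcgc
INSIG1: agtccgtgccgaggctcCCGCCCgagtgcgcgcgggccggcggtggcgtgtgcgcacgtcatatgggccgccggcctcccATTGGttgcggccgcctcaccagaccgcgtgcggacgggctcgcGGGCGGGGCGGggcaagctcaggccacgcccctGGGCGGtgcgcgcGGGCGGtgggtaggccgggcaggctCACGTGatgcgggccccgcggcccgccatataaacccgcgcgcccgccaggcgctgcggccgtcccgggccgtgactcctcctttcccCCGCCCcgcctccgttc

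The sterol regulatory element core was present in 0.430% of all 35116 RefSeq windows. The 32 members with a window had 45 windows, so a member could match in more than 1. Of these 45, only that of SREBF2 (2.22%) held the core, which began 133 bases before the start. SQLE, ACAT2, FDFT1 and FASN had no window in the table. A looser form, TCACNCNAC, which includes the strict one, was present in 2.55% of all windows and 11.1% of member windows. These belonged to SREBF2, ACSS2, FDPS, HSD17B7 and FADS2. CCAAT was present in 34.6% of all windows, in 60% of member windows and in at least 1 window of 23 members. It was found for 9 of 12 members that fell after RNF6 siRNA, 1 of 4 that rose (INSIG1) and 13 of 16 that did not pass the test. NSDHL held 5 of these matches, ME1 none. GGGCGG was present in 45.0% of all windows and 86.7% of member windows. It was found for 30 members, 11 of 12 that fell, 4 of 4 that rose and 15 of 16 that did not pass. NSDHL had none. CACGTG was present in 7.26% of all windows and 13.3% of member windows, which belonged to SCAP, SC5D, LSS, INSIG1 and ELOVL5. The motifs were picked with the values of these genes known, and a match is a description of the letters, not a binding site.

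Reads assigned to genes ranged from 6808771 to 11071456 per library. The targeted gene, RNF6, had 16.4, 16.2 and 16.8 CPM (counts scaled to a common library size) in RNF6 siRNA replicates 1, 2 and 3, against 54.2, 45.1 and 57.6 CPM in control siRNA replicates 1, 2 and 3. It was 3.17-fold lower after RNF6 siRNA (log2 fold change −1.66, SE 0.126, adjusted p = 2.12e-06). The epithelial markers EPCAM, CDH1, KRT8, KRT18, KRT19 and CDX2 were present. KRT20 was low, at 0.631 ± 0.192 CPM in RNF6 siRNA and 1.98 ± 0.532 CPM in control siRNA libraries (SD, n = 3 each). Of the 12 epithelial markers, 5 stayed under 1 CPM in every library. They were VIL1, LGALS4 and CEACAM5, and CDX1 and TFF3 without a read, so the markers do not settle that these are HT29 cells, and the name is used here as the labels give it. The 12 markers summed to 2438 to 2820 CPM in RNF6 siRNA libraries, against 4339 to 5636 CPM in control siRNA libraries. Most of that difference was keratin: KRT8 averaged 1252 ± 103 CPM in RNF6 siRNA and 3055 ± 441 CPM in control siRNA libraries (SD, n = 3 each). Leukocyte markers summed to 2.32 to 3.30 CPM in RNF6 siRNA and 4.25 to 6.06 CPM in control siRNA libraries, with CD3D and CD68 at 0. Fibroblast markers summed to 70.0 to 84.8 CPM in RNF6 siRNA and 50.2 to 65.4 CPM in control siRNA libraries, nearly all COL1A1, with 7 of 9 under 1 CPM. Endothelial markers stayed at or under 3.08 CPM in sum, and adipocyte and hepatocyte markers at or under 9.37 CPM. Whether these shifts have a part in the results below was not tested.

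Of the 36 genes, 4 rose and 13 fell after RNF6 siRNA, and 19 did not pass the test. Calls rest on edgeR's quasi-likelihood test with Benjamini-Hochberg adjustment over all genes tested and a threshold of 0.05. Over all genes 32.7% were called, 16.6% higher and 16.1% lower, so the members' share of higher calls, 11.1%, was below the background and their share of lower calls, 36.1%, above it. Their median log2 fold change was −0.18, against 0.01 over all genes. For 18 of the 36 the groups were fully separate, with RNF6 siRNA libraries all higher for 4 and all lower for 14. Such separation was seen for 44.2% of all genes, with 22.4% all higher and 21.8% all lower. In bulk RNA, fewer cells of a kind and less RNA per cell cannot be told apart. Without control siRNA replicate 3 only 2 members were called higher, but calls over all genes also dropped, to 20.8% in either direction.

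**Figure D1:**
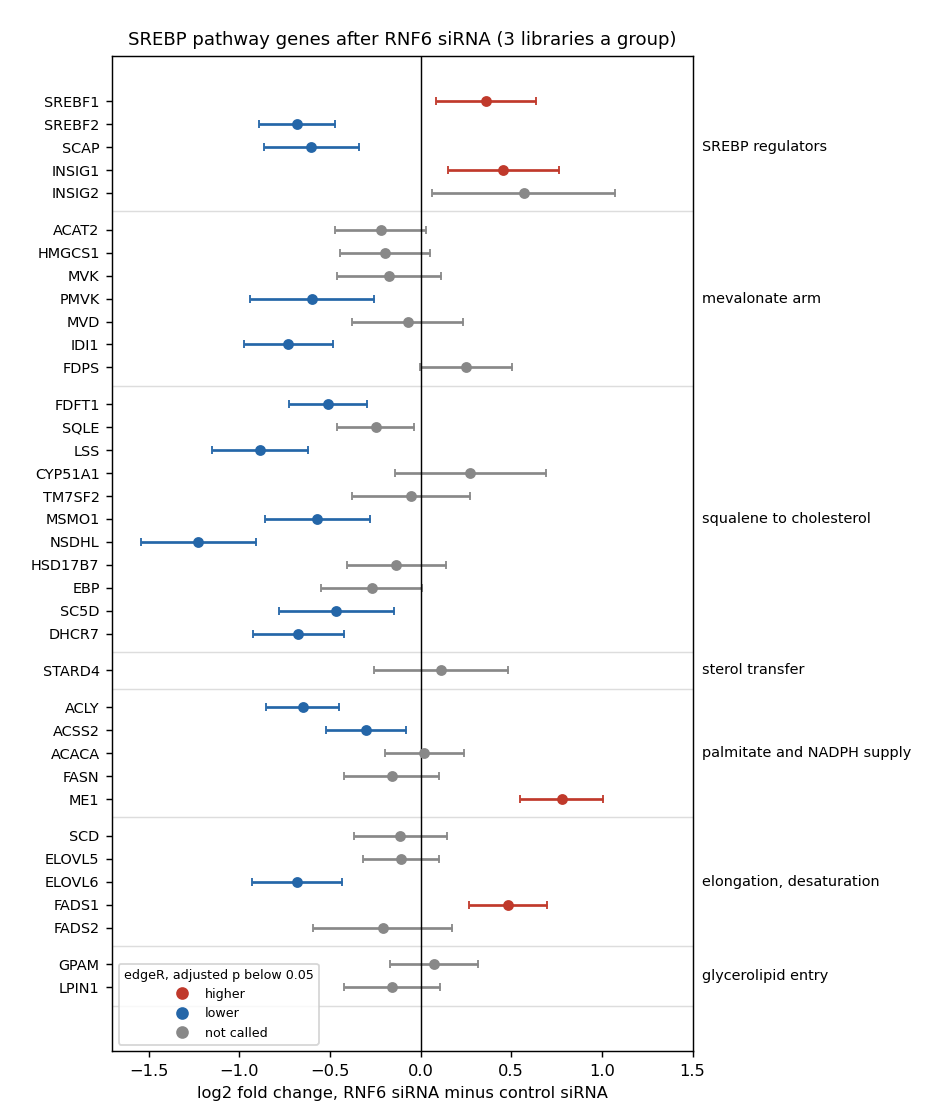
Log2 fold change (RNF6 siRNA minus control siRNA) of the 36 genes on the x axis, grouped by role down the y axis, with 95% intervals as bars and the call as colour. NSDHL lies farthest to the left at −1.22 and ME1 farthest to the right at 0.78, and no gene of the mevalonate or squalene-to-cholesterol groups was called higher.

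Among the regulators, SREBF2 and SCAP fell, while SREBF1 and INSIG1 rose. SREBF2, which encodes the SREBP best known for sterol synthesis, had 129, 118 and 113 CPM in RNF6 siRNA replicates 1, 2 and 3, against 180.0, 198 and 198 CPM in control siRNA replicates 1, 2 and 3. Every RNF6 siRNA library lay below every control siRNA library, and the log2 fold change was −0.68, that is 1.60-fold lower, with an SE of 0.0970 and an adjusted p of 2.15e-04. SCAP, the escort of both SREBPs, had 66.1, 54.2 and 60.3 CPM in RNF6 siRNA libraries, against 78.6, 102 and 94.2 CPM in control siRNA libraries. These groups also stayed apart, with a level 1.52-fold lower (−0.60 ± 0.122 on the log2 scale, SE, adjusted p = 0.00242).

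SREBF1 had 163, 125 and 154 CPM in RNF6 siRNA libraries, against 96.7, 127 and 120.4 CPM in control siRNA libraries. The groups overlapped, since RNF6 siRNA replicate 2 lay under control siRNA replicate 2, and the level was 1.28-fold higher (0.36 ± 0.128 on the log2 scale, SE, adjusted p = 0.0458). The adjusted p was over the threshold on leaving out RNF6 siRNA replicate 1 (0.137) or 3 (0.162) or control siRNA replicate 1 (0.0909) or 3 (0.108) and with a filter at a mean of 1 CPM (0.0509), in a range of 0.0129 to 0.162 over all alternatives. The SREBF1 and SREBF2 transcripts thus had opposite signs. Per kilobase of annotated exon, SREBF1 stood at 18.3 ± 2.44 CPM per kb and SREBF2 at 15.9 ± 1.06 CPM per kb in RNF6 siRNA libraries, whose ranges of 1 SD met. In control siRNA libraries SREBF1 stood at 14.3 ± 1.99 and SREBF2 at 25.4 ± 1.38 CPM per kb (SD, n = 3 each).

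INSIG1, an endoplasmic reticulum anchor of SCAP and itself a known SREBP target, had 76.8, 79.9 and 66.0 CPM in RNF6 siRNA libraries, against 66.4, 44.6 and 51.5 CPM in control siRNA libraries. RNF6 siRNA replicate 3 lay just under control siRNA replicate 1, and the level was 1.37-fold higher (0.46 ± 0.142 on the log2 scale, SE, adjusted p = 0.0256). That call was lost on leaving out RNF6 siRNA replicate 2 (adjusted p = 0.0975), control siRNA replicate 2 (0.0684) or control siRNA replicate 3 (0.119), in a range of 2.15e-04 to 0.119. INSIG2, the second anchor, had 74.1, 100.2 and 73.5 CPM in RNF6 siRNA libraries, against 85.1, 42.3 and 40.3 CPM in control siRNA libraries. Control siRNA replicate 1 stood far above the other control siRNA libraries and INSIG2 did not pass the test (log2 fold change 0.57, 95% interval 0.06 to 1.07, adjusted p = 0.0803). Without that library it was called higher (log2 fold change 0.98, adjusted p = 1.00e-06), as it was without a filter on low counts (0.0202) and with limma-voom (0.0448), in a range of 1.00e-06 to 0.492.

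**Figure D2:**
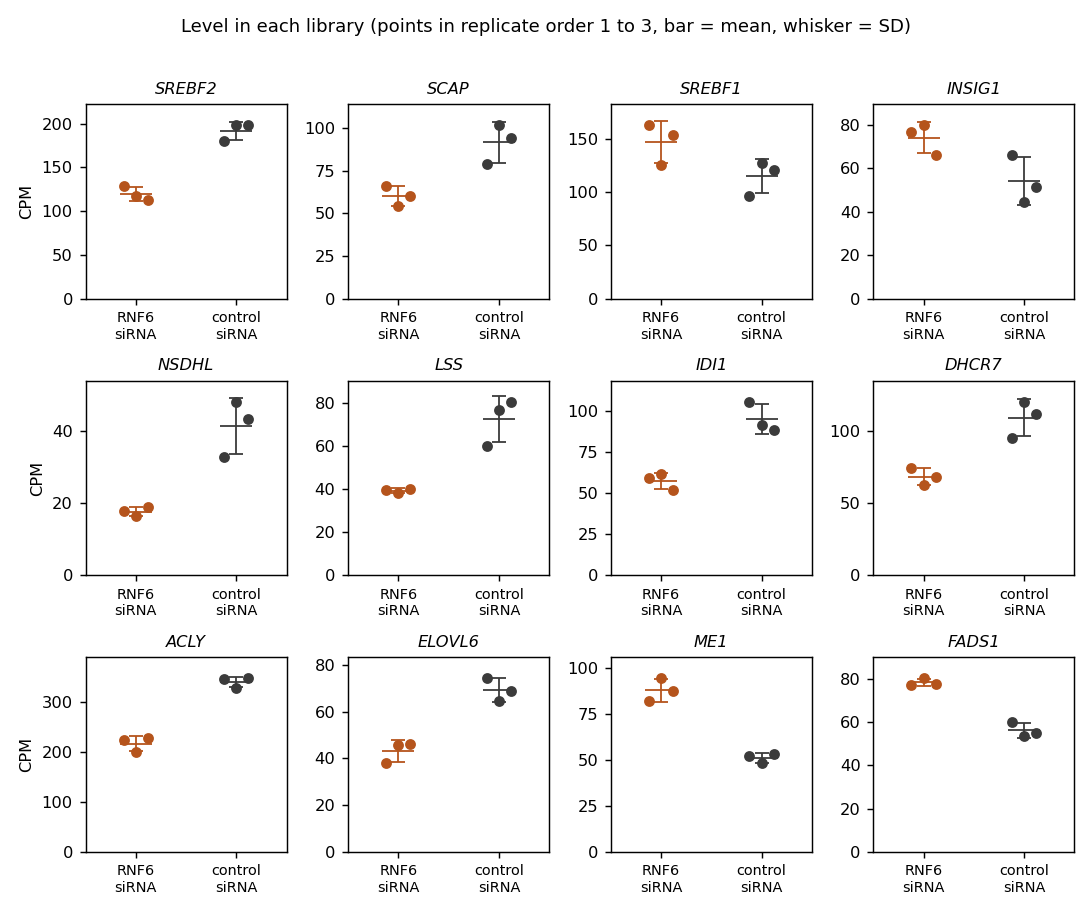
CPM (y axis, each panel on its own scale) of 12 members in the 3 RNF6 siRNA libraries and the 3 control siRNA libraries, with the mean and SD. SREBF2, LSS and NSDHL have every RNF6 siRNA library below every control siRNA library, and ME1 every RNF6 siRNA library above.

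In the mevalonate branch, which makes isoprenoid units from acetyl-CoA, 2 of 7 genes fell (28.6%, against 16.1% over all genes), none rose, and the median log2 fold change was −0.20. IDI1 encodes the isomerase that readies isopentenyl diphosphate for chain building. It had 59.3, 61.5 and 51.9 CPM in RNF6 siRNA libraries, against 106, 91.7 and 88.5 CPM in control siRNA libraries. The groups were clearly apart, and IDI1 was 1.66-fold lower (−0.73 ± 0.113 on the log2 scale, SE, adjusted p = 3.92e-04). PMVK, phosphomevalonate kinase, had 17.7, 11.8 and 15.3 CPM in RNF6 siRNA libraries, against 21.5, 26.3 and 20.8 CPM in control siRNA libraries. All RNF6 siRNA libraries were lower, at a level 1.52-fold lower (−0.60 ± 0.158 on the log2 scale, SE, adjusted p = 0.0114).

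The other 5 mevalonate genes did not pass. HMGCS1, the HMG-CoA synthase that commits acetyl units to the branch, averaged 86.5 ± 9.44 CPM in RNF6 siRNA and 98.9 ± 10.0 CPM in control siRNA libraries, with overlapping groups (log2 fold change −0.20, 95% interval −0.45 to 0.05, adjusted p = 0.215). ACAT2, the cytosolic thiolase, averaged 28.4 ± 2.17 CPM in RNF6 siRNA and 33.1 ± 2.25 CPM in control siRNA libraries. Its level is uncertain, because 52.3% of its exon length lies under other genes, the largest overlap being with a gene on the opposite strand. MVK, mevalonate kinase, averaged 21.7 ± 2.68 CPM in RNF6 siRNA and 24.4 ± 2.26 CPM in control siRNA libraries. MVD, the decarboxylase that follows PMVK, averaged 72.1 ± 12.7 CPM in RNF6 siRNA and 76.0 ± 10.9 CPM in control siRNA libraries. The adjusted p of these 3 ran from 0.163 to 0.733, each with overlapping libraries. FDPS, which joins isoprenoid units into farnesyl diphosphate, went the other way. It had 54.9, 47.8 and 43.5 CPM in RNF6 siRNA libraries, all above the 38.1, 43.1 and 41.6 CPM of the control siRNA libraries, but the difference did not pass the test (log2 fold change 0.25, SE 0.118, adjusted p = 0.119).

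From farnesyl diphosphate to cholesterol, 6 of 11 genes fell, none rose, and the median log2 fold change was −0.46. The share of lower calls was 54.5%, against 16.1% over all genes, and 8 of the 11 had libraries that did not overlap, 7 with RNF6 siRNA all lower and 1 (CYP51A1) all higher, against 44.2% of all genes. NSDHL, on chromosome X, is a dehydrogenase of the step that strips methyl groups off the sterol ring, and it changed most of the 36 genes. It had 17.8, 16.3 and 18.9 CPM in RNF6 siRNA libraries, against 32.8, 48.1 and 43.2 CPM in control siRNA libraries. The highest RNF6 siRNA library lay far under the lowest control siRNA library, and NSDHL was 2.34-fold lower (−1.22 ± 0.147 on the log2 scale, SE, adjusted p = 5.95e-05). LSS, on chromosome 21, is lanosterol synthase, which closes the first sterol ring system. It had 39.8, 38.1 and 40.2 CPM in RNF6 siRNA libraries, against 60.4, 76.9 and 80.7 CPM in control siRNA libraries. The RNF6 siRNA libraries were tightly grouped and 1.85-fold lower (−0.88 ± 0.123 on the log2 scale, SE, adjusted p = 1.72e-04).

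DHCR7, the reductase that turns dehydrocholesterol into cholesterol, had 74.4, 62.3 and 67.8 CPM in RNF6 siRNA libraries, against 95.1, 120.0 and 112 CPM in control siRNA libraries. No library crossed, and DHCR7 was 1.60-fold lower (−0.67 ± 0.116 on the log2 scale, SE, adjusted p = 8.60e-04). FDFT1, squalene synthase, is the entry to the sterol-only part of the pathway. It had 129.7, 121 and 109.6 CPM in RNF6 siRNA libraries, against 163, 180.0 and 170.3 CPM in control siRNA libraries, and was 1.42-fold lower (−0.51 ± 0.0998 on the log2 scale, SE, adjusted p = 0.00198). MSMO1, the methylsterol oxidase that acts before NSDHL, had 76.4, 99.0 and 67.2 CPM in RNF6 siRNA libraries, against 129, 113 and 117 CPM in control siRNA libraries. Its RNF6 siRNA libraries varied more but stayed under all control siRNA libraries (log2 fold change −0.57, SE 0.134, adjusted p = 0.00610). SC5D, a sterol desaturase near the end of the route, had 34.2, 47.1 and 43.0 CPM in RNF6 siRNA libraries, against 67.4, 48.0 and 55.7 CPM in control siRNA libraries. RNF6 siRNA replicate 2 came close to control siRNA replicate 2, and SC5D was 1.38-fold lower (−0.46 ± 0.147 on the log2 scale, SE, adjusted p = 0.0285). Its call was lost on leaving out RNF6 siRNA replicate 1 (adjusted p = 0.0913) or 3 (0.0765) or control siRNA replicate 3 (0.0718), in a range of 0.00233 to 0.115.

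The other 5 genes of this group did not pass. SQLE, the squalene epoxidase regarded as rate-limiting in this stretch, had 79.9, 82.0 and 76.8 CPM in RNF6 siRNA libraries, against 101, 90.3 and 92.3 CPM in control siRNA libraries. Although no library crossed, the difference missed the threshold (log2 fold change −0.25, 95% interval −0.46 to −0.03, adjusted p = 0.0714). EBP, the sterol isomerase, averaged 40.2 ± 3.22 CPM in RNF6 siRNA and 48.5 ± 7.67 CPM in control siRNA libraries (log2 fold change −0.27, adjusted p = 0.128). Without control siRNA replicate 1 EBP was called lower (log2 fold change −0.38, adjusted p = 0.0138), in a range of 0.0138 to 0.424. HSD17B7, which reduces the sterol ketone after NSDHL, averaged 23.7 ± 2.96 CPM in RNF6 siRNA and 25.8 ± 1.41 CPM in control siRNA libraries. TM7SF2, a sterol reductase, averaged 27.8 ± 3.94 CPM in RNF6 siRNA and 29.0 ± 5.45 CPM in control siRNA libraries. CYP51A1, the lanosterol demethylase, averaged 4.27 ± 0.181 CPM in RNF6 siRNA and 3.53 ± 0.252 CPM in control siRNA libraries. That level is uncertain, because 83.2% of its exon length in GENCODE release 29 lies under other genes. The gene with the largest overlap is on the same strand. STARD4, which carries cholesterol between membranes, averaged 84.4 ± 7.85 CPM in RNF6 siRNA and 78.2 ± 23.8 CPM in control siRNA libraries (log2 fold change 0.11, adjusted p = 0.653). Control siRNA replicate 1 held its highest value, 105 CPM, and without that library STARD4 was called higher (log2 fold change 0.37, adjusted p = 0.0139), in a range of 0.0139 to 0.958.

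**Figure D3:**
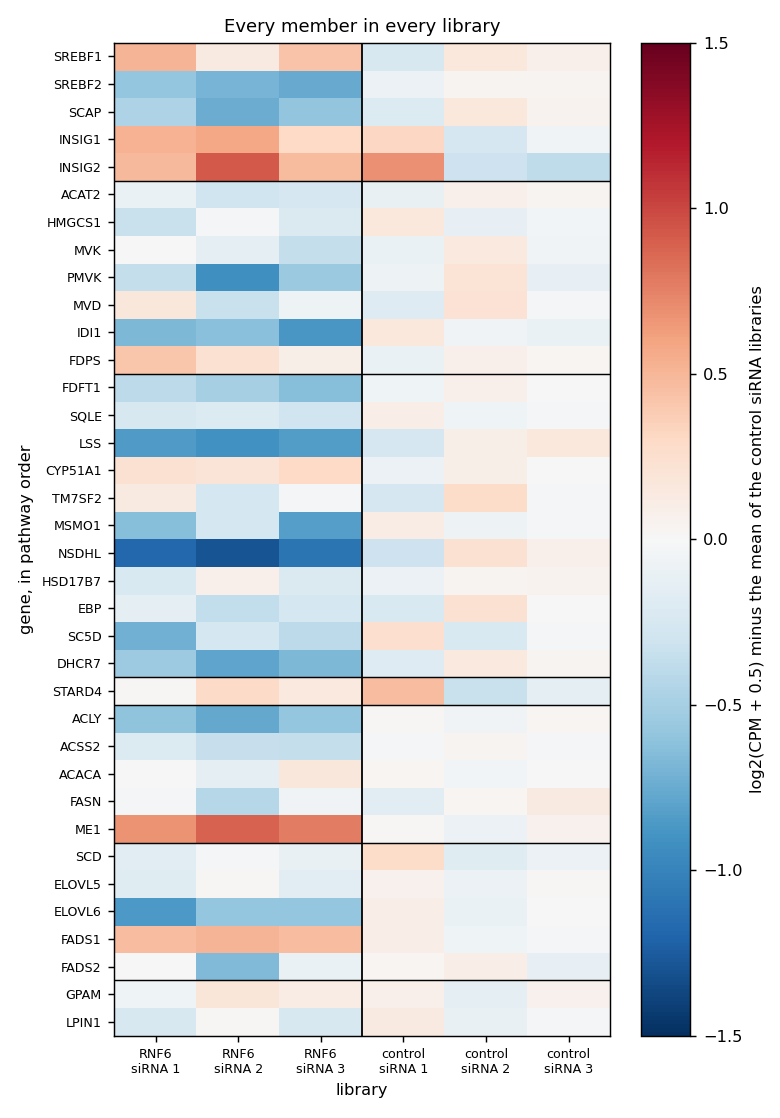
Log2(CPM + 0.5) of each of the 36 genes (rows, by role) in each library (columns, RNF6 siRNA left and control siRNA right) minus its mean over the control siRNA libraries. The squalene-to-cholesterol rows are below 0 in the RNF6 siRNA columns for most genes, with NSDHL deepest. The rows above 0 in every RNF6 siRNA column are SREBF1, INSIG1, INSIG2, FDPS, CYP51A1, STARD4, ME1 and FADS1.

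In the fatty acid branch 2 of 12 genes rose, 3 fell and 7 did not pass, with a median log2 fold change of −0.13. The share of higher calls was 16.7%, near the background of 16.6%, and the share of lower calls 25%, against 16.1% over all genes. Of the 5 genes that supply acetyl-CoA and NADPH or build the chain, ACLY and ACSS2 fell and ME1 rose. ACLY, the citrate lyase that makes cytosolic acetyl-CoA for both branches, had 224, 199 and 227 CPM in RNF6 siRNA libraries, against 345, 329 and 347 CPM in control siRNA libraries. Its groups were far apart, at a level 1.57-fold lower (−0.65 ± 0.0930 on the log2 scale, SE, adjusted p = 2.17e-04). ME1, the cytosolic malic enzyme that yields NADPH, had 81.7, 94.3 and 87.3 CPM in RNF6 siRNA libraries, against 51.9, 48.1 and 53.4 CPM in control siRNA libraries. It was 1.71-fold higher (0.78 ± 0.105 on the log2 scale, SE, adjusted p = 1.46e-04), in the direction opposite to ACLY. ACSS2, which makes acetyl-CoA out of acetate, had 59.9, 54.2 and 53.8 CPM in RNF6 siRNA libraries, against 67.5, 71.1 and 68.3 CPM in control siRNA libraries. No library crossed, and the level was 1.23-fold lower (−0.30 ± 0.101 on the log2 scale, SE, adjusted p = 0.0366). The ACSS2 call was lost on leaving out RNF6 siRNA replicate 2 (adjusted p = 0.0961) or 3 (0.143) or control siRNA replicate 2 (0.0867) or 3 (0.108) and without a filter on low counts (0.0700), in a range of 0.0247 to 0.146.

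The 2 enzymes that build palmitate did not pass. FASN, fatty acid synthase, had 604, 456 and 594 CPM in RNF6 siRNA libraries, against 549, 626 and 674 CPM in control siRNA libraries. The groups overlapped, and the interval of the log2 fold change (−0.16) ran from −0.42 to 0.10, adjusted p = 0.340. ACACA, the acetyl-CoA carboxylase of the first step, had 154, 140.0 and 173 CPM in RNF6 siRNA libraries, against 157, 149 and 155 CPM in control siRNA libraries. Its log2 fold change was 0.02, with a 95% interval of −0.20 to 0.24, adjusted p = 0.900.

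Among the 5 enzymes that elongate or desaturate fatty acids, ELOVL6 fell and FADS1 rose. ELOVL6, the elongase of palmitate, had 37.9, 45.9 and 46.0 CPM in RNF6 siRNA libraries, against 74.4, 64.4 and 69.0 CPM in control siRNA libraries. The groups lay well apart, at a level 1.60-fold lower (−0.68 ± 0.115 on the log2 scale, SE, adjusted p = 7.55e-04). FADS1, a desaturase of polyunsaturated fatty acids, had 77.3, 80.4 and 77.8 CPM in RNF6 siRNA libraries, against 60.1, 53.4 and 55.1 CPM in control siRNA libraries. It was 1.40-fold higher (0.48 ± 0.101 on the log2 scale, SE, adjusted p = 0.00295). Its neighbour in the same route, FADS2, averaged 9.49 ± 2.27 CPM in RNF6 siRNA and 11.2 ± 0.932 CPM in control siRNA libraries and did not pass (log2 fold change −0.21, adjusted p = 0.393). SCD, the desaturase that makes oleate, had 425, 464 and 439.7 CPM in RNF6 siRNA libraries, against 572, 418 and 445 CPM in control siRNA libraries. Only control siRNA replicate 1 stood apart, and SCD did not pass (log2 fold change −0.11, 95% interval −0.37 to 0.14, adjusted p = 0.503). ELOVL5, an elongase of polyunsaturated fatty acids, averaged 166 ± 12.6 CPM in RNF6 siRNA and 179 ± 9.98 CPM in control siRNA libraries (adjusted p = 0.416). The glycerolipid genes GPAM, the mitochondrial glycerol-phosphate acyltransferase, and LPIN1, a phosphatidate phosphatase, did not pass either. GPAM averaged 62.5 ± 5.34 CPM in RNF6 siRNA and 59.3 ± 5.23 CPM in control siRNA libraries. LPIN1 averaged 31.7 ± 3.37 CPM in RNF6 siRNA and 35.3 ± 3.15 CPM in control siRNA libraries.

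Set side by side, the sterol branch (mevalonate and squalene-to-cholesterol genes) had 8 of 18 genes lower (44.4%) and 0 higher. The fatty acid branch had 3 of 12 lower (25%) and 2 higher (16.7%). Over all genes 16.1% were lower and 16.6% higher. The median log2 fold change was −0.26 in the sterol branch and −0.13 in the fatty acid branch, a difference of −0.12 that was not tested, since genes of a branch are not replicates. The difference was −0.22 without control siRNA replicate 1, −0.21 without RNF6 siRNA replicate 1 and −0.17 without RNF6 siRNA replicate 2. Library by library, the mean log2 distance of the sterol genes to their control siRNA mean was −0.30, −0.37 and −0.40 in RNF6 siRNA replicates 1, 2 and 3, against −0.072, 0.075 and −0.0027 in control siRNA replicates 1, 2 and 3. Every RNF6 siRNA library lay under every control siRNA library. For the fatty acid genes it was −0.099, −0.11 and −0.056 in RNF6 siRNA replicates, against 0.056, −0.059 and 0.0037 in control siRNA replicates, so by the mean the groups overlapped at RNF6 siRNA replicate 3 and control siRNA replicate 2. By the median over the fatty acid genes it was −0.11, −0.083 and −0.11 in RNF6 siRNA replicates, against 0.052, −0.078 and 0.0037 in control siRNA replicates, and there the groups did not overlap, by a narrow margin. Within the sterol branch, the mevalonate genes had mean distances of −0.13, −0.30 and −0.32 in RNF6 siRNA replicates 1, 2 and 3. The squalene-to-cholesterol genes had −0.41, −0.42 and −0.45. In control siRNA replicates these means were −0.038, 0.077 and −0.039 for mevalonate genes and −0.094, 0.073 and 0.020 for squalene-to-cholesterol genes. By the median, RNF6 siRNA replicates stood at −0.098, −0.30 and −0.26 for mevalonate genes and at −0.40, −0.27 and −0.39 for squalene-to-cholesterol genes. In RNF6 siRNA replicate 2 the mevalonate genes were thus the lower by the median.

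**Figure D4:**
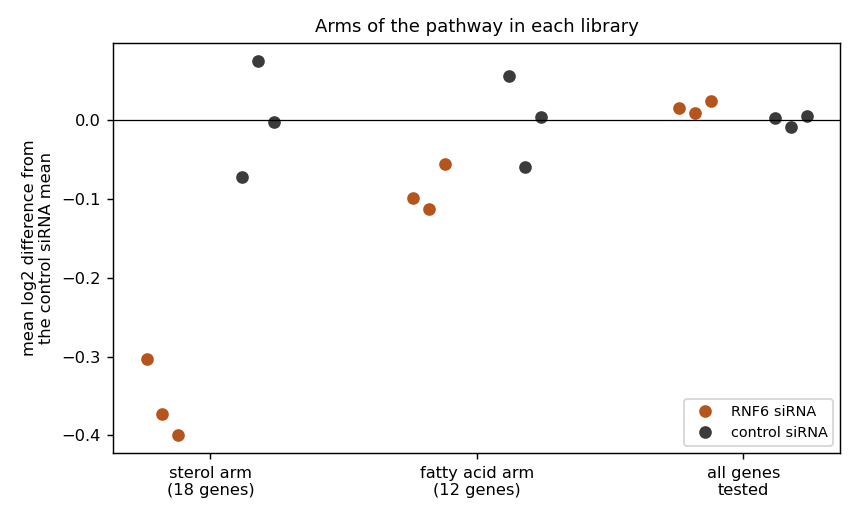
Mean log2 difference from the control siRNA mean (y axis) of the 18 sterol genes, the 12 fatty acid genes and all genes tested, 1 point per library, RNF6 siRNA left of control siRNA. The sterol points of RNF6 siRNA libraries run from −0.40 to −0.30, below all control siRNA points, while the fatty acid means meet, with RNF6 siRNA replicate 3 at −0.056 and control siRNA replicate 2 at −0.059 (their medians, not plotted, do not).

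Per kilobase of exon (GENCODE release 29), the most abundant of the 36 genes in both groups were SCD, FASN, ACLY and ELOVL5, all of the fatty acid branch. SCD stood at 82.6 CPM per kb in RNF6 siRNA and 89.2 CPM per kb in control siRNA libraries, and FASN at 58.8 ± 8.82 CPM per kb in RNF6 siRNA and 65.8 ± 6.73 CPM per kb in control siRNA libraries. ACLY stood at 41.5 ± 2.93 CPM per kb in RNF6 siRNA and 65.3 ± 1.99 CPM per kb in control siRNA libraries, so that in control siRNA libraries it did not differ from FASN beyond their spread. MSMO1, among the more abundant sterol enzymes, stood at 28.0 ± 5.67 CPM per kb in RNF6 siRNA and 41.3 ± 2.78 CPM per kb in control siRNA libraries. FADS2 and CYP51A1 were the lowest, near 1 CPM per kb in both groups, but the level of CYP51A1 is uncertain because other genes overlap it.

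Around the pathway, the genes that govern SREBP transport, cleavage and the degradation of its partners were called in both directions, 3 higher and 3 lower of 16 (18.8% each way). That is near the 16.6% higher and 16.1% lower of all genes, which are the background for every list that follows. Leaving out each library in turn moved the share called over all genes too, from 32.7% to between 20.2% and 39.1%. ERLIN2 and ERLIN1 encode partners in an endoplasmic reticulum complex that restrains SREBP activation. ERLIN2 averaged 55.2 ± 1.63 CPM in RNF6 siRNA and 21.6 ± 0.893 CPM in control siRNA libraries, 2.55-fold higher (adjusted p = 3.11e-06). ERLIN1 averaged 135 ± 1.80 CPM in RNF6 siRNA and 86.2 ± 3.24 CPM in control siRNA libraries, 1.56-fold higher (adjusted p = 2.47e-04). RNF139, which encodes a sterol-sensing ubiquitin ligase of the endoplasmic reticulum, moved the other way. It averaged 58.3 ± 8.41 CPM in RNF6 siRNA and 82.9 ± 3.30 CPM in control siRNA libraries, 1.43-fold lower (adjusted p = 0.00511).

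Of 22 genes of isoprenoid routes other than sterol synthesis, 3 were higher and 4 lower (13.6% and 18.2%), near the background. DOLK, dolichol kinase, averaged 5.63 ± 0.881 CPM in RNF6 siRNA and 25.4 ± 4.15 CPM in control siRNA libraries, 4.51-fold lower (adjusted p = 3.11e-06), and DOLPP1, a dolichyl diphosphate phosphatase, was 2.05-fold lower (adjusted p = 1.28e-04). COQ7, of ubiquinone synthesis, was 2.25-fold higher (adjusted p = 3.79e-05). Of 11 accessory genes of sterol synthesis tested, 2 were higher and 4 lower (18.2% and 36.4%), with 2 lower without RNF6 siRNA replicate 2 or 3 and 1 higher without either of these or without control siRNA replicate 2 or 3. ACAT1, the mitochondrial thiolase, rose 1.56-fold (adjusted p = 3.99e-04) and the electron donor CYB5A fell 1.65-fold (adjusted p = 0.00198). Of 19 genes of sterol uptake and traffic, 5 were higher and 6 lower (26.3% and 31.6%). The receptor LRP1 averaged 56.9 ± 5.80 CPM in RNF6 siRNA and 30.5 ± 2.12 CPM in control siRNA libraries, 1.87-fold higher (adjusted p = 1.07e-04). TMEM97, which binds the cholesterol exporter NPC1, averaged 30.5 ± 0.282 CPM in RNF6 siRNA and 44.0 ± 3.57 CPM in control siRNA libraries, 1.44-fold lower (adjusted p = 0.00288). Without control siRNA replicate 3 that list had 3 higher and 3 lower, and it had 3 lower without RNF6 siRNA replicate 2. Of 10 liver X receptor genes and targets, 3 were higher and 2 lower (30% and 20%). RXRB had the smallest adjusted p of the higher genes (1.67-fold, adjusted p = 2.73e-04) and SMPDL3A that of the lower genes (2.45-fold, adjusted p = 0.00104). That list kept 1 higher without RNF6 siRNA replicate 3, and 1 lower without RNF6 siRNA replicate 2, RNF6 siRNA replicate 3 or control siRNA replicate 3.

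On the fatty acid side, 3 of 27 further synthesis genes were higher and 4 lower (11.1% and 14.8%), both shares under the background. The elongase ELOVL3 was 2.09-fold lower (adjusted p = 7.18e-04) and the mitochondrial transferase MCAT 1.94-fold lower (adjusted p = 8.02e-04). No gene of that list was called higher without RNF6 siRNA replicate 3 or control siRNA replicate 3, and 1 was without RNF6 siRNA replicate 2 or control siRNA replicate 2. Of 20 further glycerolipid genes 5 were lower (25%) and 0 higher, with 2 lower without RNF6 siRNA replicate 3 or control siRNA replicate 3 and 1 higher without RNF6 siRNA replicate 2. AGPAT5, an acyltransferase, was 1.42-fold lower (adjusted p = 0.00456). Of 20 fatty acid oxidation genes 5 were higher and 3 lower (25% and 15%). The lower count was 0 without RNF6 siRNA replicate 2 and 1 without RNF6 siRNA replicate 3, control siRNA replicate 2 or control siRNA replicate 3. PPARA, a nuclear receptor that drives oxidation genes in liver, averaged 63.5 ± 8.69 CPM in RNF6 siRNA and 31.4 ± 2.72 CPM in control siRNA libraries, 2.02-fold higher (adjusted p = 8.18e-05). Of 9 genes of NADPH and precursor supply 2 were higher and 4 lower (22.2% and 44.4%). PGD, of the pentose phosphate route to NADPH, averaged 108 ± 4.92 CPM in RNF6 siRNA and 210.2 ± 17.5 CPM in control siRNA libraries, 1.94-fold lower (adjusted p = 2.00e-05). ME1, described above, yields NADPH by another reaction and was higher. The median log2 fold change of these 9 lists lay between −0.25 and 0.01, against −0.26 for the sterol branch.

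**Figure D5:**
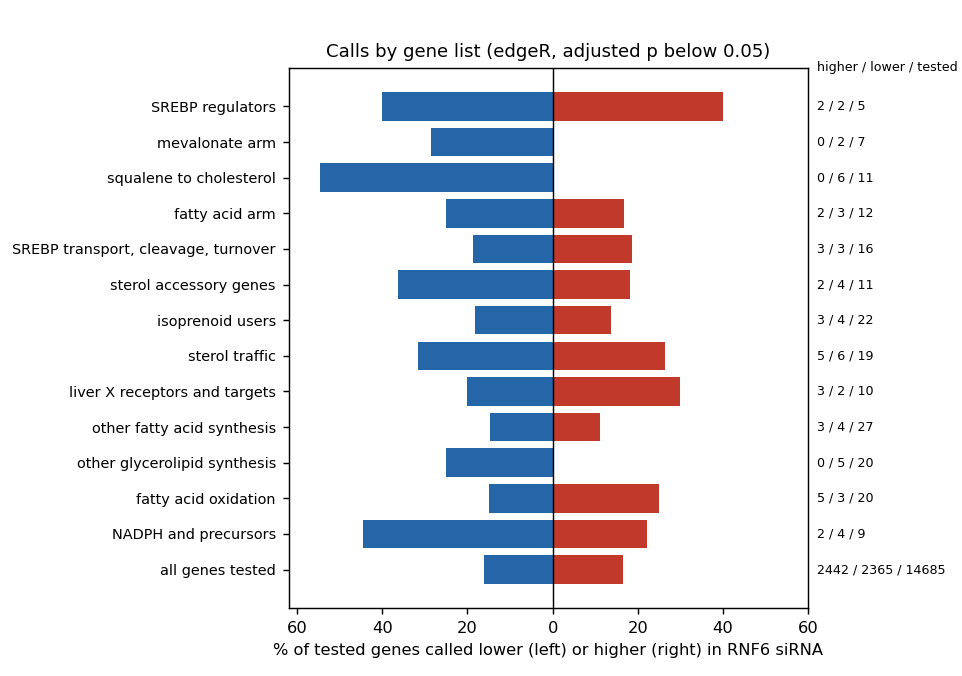
Percent of tested genes called higher and lower after RNF6 siRNA (x axis) for the member groups, the neighbouring lists and all genes tested (y axis). The squalene-to-cholesterol group has 54.5% lower and none higher, against 16.1% lower and 16.6% higher over all genes.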

How the data were processed

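RNA of 6 libraries, 3 per group, was sequenced after preparation with an Illumina TruSeq RNA kit, per the labels' protocols. The authors deposited raw read counts by gene symbol, with 1 table per library. The aligner was TopHat2 2.0.11, the counter HTSeq and the build hg19 (GRCh37), per the submitters' processing notes. The sources used here do not give the HTSeq strand setting or annotation, so reads of overlapping genes on opposite strands cannot be told apart. Rows for reads without a gene held 27.3% to 29.4% of the reads (ambiguous reads alone 8.27% to 9.11%) and were left out.

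The deposited counts entered edgeR 4.0.16 (R 4.3.3) unchanged. filterByExpr with a minimum count of 10 and a minimum total of 15 left 14685 genes. TMM factors ran from 0.985 to 1.02 and the common biological coefficient of variation was 10.5%. All 6 libraries entered a quasi-likelihood model whose only term was the group, tested two-sided (glmQLFTest), with Benjamini-Hochberg adjustment over all genes tested, and a gene was called below 0.05. This test gives every adjusted p whose tool is not named. Fold changes are RNF6 siRNA over control siRNA with a prior count of 0.125. The procedure was run on counts simulated gene by gene from the means and dispersions of its own fit. That simulation changed far fewer genes than were called here and held no shifts shared between genes. It therefore does not show how the procedure behaves with such shifts. Values are CPM scaled by TMM, given as mean ± SD with n = 3. Levels per kilobase use exon lengths of GENCODE 29 (GRCh38).

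Alternatives were other scalings, no filter, a filter at 1 CPM, DESeq2 1.42.0, limma 3.58.1 with voom, a replicate block and leaving out each library. The members and lists were chosen with earlier results of these data known. Every member is reported. From each neighbouring list up to 3 called genes per direction with the smallest adjusted p were eligible to be named. Those given a fold change kept their call under all 14 alternatives, a choice made after their values were seen, and some eligible genes are not reported here.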

Additional observations from a re-analysis of the deposited data

How the results depend on the processing

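Of the 17 called members, 12 kept their call under all 14 alternatives, and no member changed the sign of a called difference. SREBF1, INSIG1, PMVK, SC5D and ACSS2 lost it under at least 1, and INSIG2, EBP and STARD4 were called under at least 1. Each of the latter was called without control siRNA replicate 1, where 39.1% of all genes were called, against 32.7% in the main fit. Replicate numbers did not pair the libraries (correlations of same-numbered deviations −0.50, −0.28 and 0.06), and no library correlated best with its own number. The highest correlation was 0.50, between RNF6 siRNA replicate 1 and control siRNA replicate 2. With the replicate number as a block 2 members were higher and 10 lower, the adjusted p was 0.0548 for PMVK, 0.151 for SREBF1, 0.0694 for INSIG1, 0.115 for SC5D and 0.146 for ACSS2, and the sterol branch had 6 genes lower. Over all genes that block called 1421 higher and 1321 lower. Leaving out each library in turn gave 2 to 5 members higher and 11 to 14 lower, a sterol median of −0.31 to −0.25, a fatty acid median of −0.16 to −0.093 and a difference of −0.22 to −0.12. Upper-quartile scaling gave a fatty acid median of −0.12. Over all genes, 1529 were higher and 1478 lower without RNF6 siRNA replicate 3, 1514 and 1595 without control siRNA replicate 3, and no filter called 15.6% of 31511 genes. RNF6 stayed called under every alternative. The causes of these shifts were not tested. With 3 libraries per group, 95% intervals of the 19 uncalled members ran as far as −0.59 (FADS2) and 1.07 (INSIG2), while the smallest called differences were −0.30 (ACSS2) and 0.36 (SREBF1).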

Other observations

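Extremes were spread unevenly over the libraries. Since 13 members were called lower, low values in RNF6 siRNA and high values in control siRNA libraries are not a separate result. Of the 36 genes, RNF6 siRNA replicate 2 held the lowest of the 6 values for 13, where it held the lowest for 18.8% of all genes tested. It also had the fewest reads assigned to genes, 6808771, and whether depth has a part was not tested. Control siRNA replicate 2 held the highest value for 13 of the 36 genes (36.1%) and for 22.8% of all genes. Control siRNA replicate 1 held the highest value for 10 members (27.8%), among them HMGCS1, SQLE, IDI1, MSMO1, SC5D, STARD4, SCD and ELOVL6, and for 19.0% of all genes. Of the 19 members that did not pass the test, 13 had a negative and 6 a positive log2 fold change.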
